A study of Mus musculus with 9 samples.

Results

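The small leucine-rich proteoglycans, or SLRPs, are secreted proteins of the extracellular matrix, and 7 of their genes were followed through these hearts: Dcn (decorin), Bgn (biglycan), Aspn (asporin), Lum (lumican), Fmod (fibromodulin), Prelp (the proline and arginine rich end leucine-rich repeat protein) and Ogn (osteoglycin). They were chosen by gene symbol from the SLRP family and are 7 of the 15779 genes listed. RNA sequencing of poly(A)-selected RNA was done on pieces of frozen heart from adult C57BL/6J mice, in 3 groups of 3 libraries. Wild-type mice were given saline. Mybpc3R946X/R946X mice, homozygous for a premature stop codon in the gene of cardiac myosin-binding protein C, were given saline, or were given high-dose-exABE8e, an adenine base editor; they are called saline mutant and treated mutant hearts here. The study design describes delivery of its editors by AAV9 for expression in cardiomyocytes. Fibroblasts are known as the main cardiac source of SLRPs. The ages in weeks and the dose are not given in the sources used here, and the labels number the replicates without saying whether each is a separate animal. The p-values therefore measure the spread between these libraries.

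SLRPs have a core of leucine-rich repeats that binds the surface of collagen fibrils and sets how thick and how evenly spaced the fibrils become. Dcn, Bgn and Aspn form class I, and the first and second of these carry chondroitin or dermatan sulfate chains. Lum, Fmod and Prelp form class II, in which keratan sulfate chains or sulfated tyrosines are found, and Ogn belongs to class III. Several SLRPs also bind growth factors of the TGF-beta family, and soluble Bgn is a ligand of the innate immune receptors Tlr2 and Tlr4. In the heart they are made mostly by fibroblasts and are known to be induced where the matrix is remodelled.

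In saline mutant hearts Fmod and Bgn rose against wild type, and the other 5 members did not pass the test, which 7.70% of all genes passed. Fmod went from at most 1 in wild-type hearts to 11 or more in every saline mutant heart, and mean Bgn was 2.14 times the wild-type mean. In treated hearts every member had a lower mean than in saline mutant hearts, but 0 of 7 passed the test. Only 0.0147% of all genes tested passed it in that comparison. Dcn, Lum and Aspn in treated hearts overlapped wild type, while the levels of Fmod and Bgn still lay above every wild-type heart, and those of Ogn below every wild-type heart. Both mutant groups had more Bgn and less Ogn for each unit of Dcn than wild type, without overlap. These ratios were chosen after their values were seen. Over all pairs of tested genes, 30.2% of ratios did not overlap between saline mutant and wild-type hearts, and 20.5% between treated and wild-type hearts. In exact permutation tests of all ratios between members the smallest adjusted p was 0.225.

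Values are the authors' normalised values, which were deposited as whole numbers with nearly the same sum in each library. Whether they were divided by transcript length is not given, so levels are compared between libraries and not between genes. Log2 differences are on the scale log2(value + 1), and "called" means an adjusted p under 0.05 in limma (Benjamini-Hochberg, over every gene tested). Mybpc3 itself was at 1510 to 2039 in wild-type hearts, 133 to 186 in saline mutant hearts and 1024 to 1374 in treated hearts, in the order that the labels give. Replicate 3 of the saline mutant hearts was the highest of its group for 6 of 7 members, and differences that move much without it are given both ways. It and wild-type replicate 1 expressed Xist, at 351 and 119, and had no Y-linked Ddx3y, whereas treated replicate 1 held both transcripts, Xist at 39 and Ddx3y at 38. The labels do not say whether each library comes from 1 heart, and for treated replicate 1 this was not tested; "heart" stands for the library throughout. Each group thus contained 1 library with Xist. Between 14151 and 14934 genes were above 0 in a library, and the number of reads behind the values is unknown.

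The genes that encode the 7 members lie in 3 clusters and at 1 single locus of the mouse genome (GRCm38, GENCODE M21 annotation). On chromosome 1 Prelp (chr1:133910304-133921414, minus strand, 3 exons) and Fmod (chr1:134037254-134048277, plus strand, 3 exons) are 115.8 kb apart. On chromosome 10 Dcn (chr10:97479609-97518143, plus strand, 8 exons) is followed by Lum (chr10:97565128-97572703, plus strand, 3 exons) after 47.0 kb. On chromosome 13 Aspn (chr13:49544443-49567565, plus strand, 8 exons) and Ogn (chr13:49608046-49624501, plus strand, 7 exons) stand beside the family genes Ecm2 and Omd within 120 kb. Bgn lies alone on the X chromosome (chrX:73483602-73495933, plus strand, 8 exons).

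The promoters of 3 members show how unlike the starts of SLRP genes are, and those of Fmod and Prelp belong to neighbours of which one was called and one was not. Promoters of 5 of the 7 members, all but Dcn and Lum, were matched by symbol in RefSeq (GRCm38.p6), as 250 bases before to 50 after the gene's start, written 5′ to 3′ on the gene's strand. Capitals mark CAGAC, the core of a SMAD binding element, on either strand (GTCTG on the reverse). The windows are chr1:134037004-134037303 on the plus strand for Fmod, chr1:133921352-133921651 on the minus strand for Prelp and chrX:73483351-73483650 on the plus strand for Bgn.
Fmod: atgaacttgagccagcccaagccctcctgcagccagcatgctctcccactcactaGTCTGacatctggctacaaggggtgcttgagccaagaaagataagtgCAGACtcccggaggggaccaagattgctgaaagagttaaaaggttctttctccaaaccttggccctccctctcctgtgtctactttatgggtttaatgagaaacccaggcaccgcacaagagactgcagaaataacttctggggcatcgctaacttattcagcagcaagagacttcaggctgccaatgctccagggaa
Prelp: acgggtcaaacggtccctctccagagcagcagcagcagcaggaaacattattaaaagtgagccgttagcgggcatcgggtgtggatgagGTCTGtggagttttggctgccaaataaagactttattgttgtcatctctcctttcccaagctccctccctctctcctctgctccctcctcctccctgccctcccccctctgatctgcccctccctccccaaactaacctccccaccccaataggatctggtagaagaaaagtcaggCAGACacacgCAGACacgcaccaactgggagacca
Bgn: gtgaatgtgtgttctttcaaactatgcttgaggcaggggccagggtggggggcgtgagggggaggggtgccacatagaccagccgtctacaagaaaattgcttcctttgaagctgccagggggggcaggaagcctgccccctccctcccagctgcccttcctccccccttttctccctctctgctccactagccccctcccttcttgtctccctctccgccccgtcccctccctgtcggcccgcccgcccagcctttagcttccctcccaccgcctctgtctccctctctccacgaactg
Fmod holds 2 such matches and Prelp 3, while Bgn, Aspn and Ogn each hold 0. Of the 32851 mouse promoters of this length 49.6% hold at least 1. The window of Bgn is 63.7% G and C, that of Fmod 51.0% and that of Prelp 55.3%, against a median of 52.7% over all promoters. Those of Aspn and Ogn are 31.0% and 42.3%. The letters of a TEAD element (GGAATG, on either strand, found in 14.7% of promoters) occur once in the promoter of Ogn and in none of the other 4 members. The AP-1 letters TGANTCA, found in 7.8% of promoters, occur in none of the 5. The motifs were chosen with the expression results known, none of the 3 contains another, and a match describes the letters only.

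**Figure D1:**
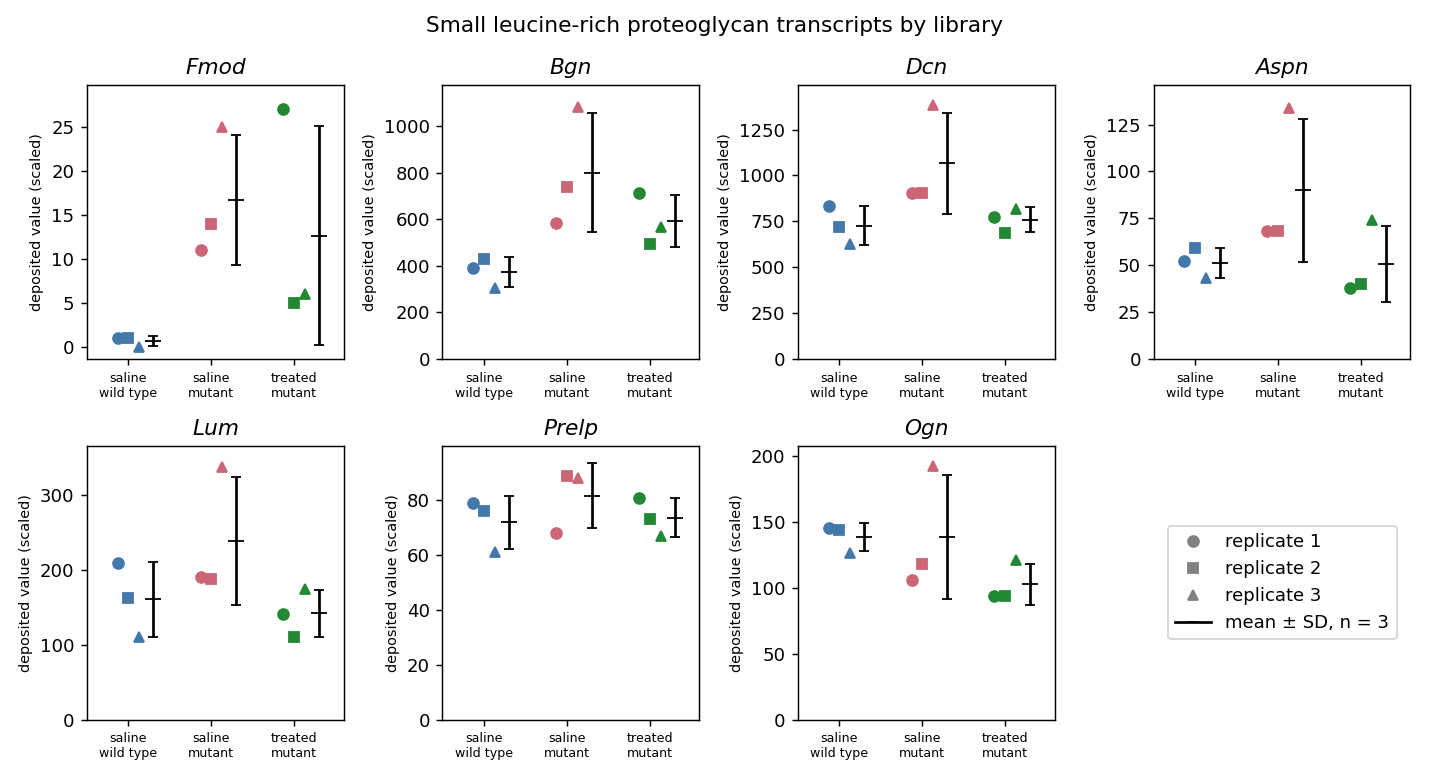
Deposited value (linear axes, scaled by the authors to nearly the same sum in each library) of each of the 7 SLRP genes in the 9 hearts, by group. Points are libraries, and the bars beside them are means ± SD (n = 3); Fmod is at 0 to 1 in wild type and at 5 to 27 in the mutant groups, and the highest saline mutant point is replicate 3 for 6 of 7 genes.

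Class I was compared first between saline mutant and wild-type hearts, the comparison that shows what loss of Mybpc3 goes with. Bgn, which binds collagen and TGF-beta, was at 390, 429 and 303 in wild-type hearts and at 582, 736 and 1081 in saline mutant hearts. Every mutant heart lay above every wild-type heart, and replicate 3 was the highest. Bgn rose by 1.06 on the log2 scale (SE 0.222, 95% interval 0.56 to 1.57, limma adjusted p = 0.0217). Without saline mutant replicate 3 the difference was 0.82 (adjusted p = 0.0411). The call was lost without wild-type replicate 1 (adjusted p = 0.0847), wild-type replicate 3 (0.0726) or saline mutant replicate 2 (0.07), and when the libraries with Xist were all left out (0.86, adjusted p = 0.0628).

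Dcn, the founding member of the family and a binder of type I collagen, was at 835, 718 and 624 in wild-type hearts and at 907, 905 and 1384 in saline mutant hearts. The groups did not overlap, although 2 mutant hearts lay close to the highest wild-type heart. Its difference was 0.53 (SE 0.184, 95% interval 0.11 to 0.95), which did not pass the correction (limma adjusted p = 0.142). Without saline mutant replicate 3 the difference in Dcn was 0.33. Aspn, a class I protein that binds collagen and TGF-beta but lacks the sulfated chains, was at 52, 59 and 43 in wild type, against 68, 68 and 134 in saline mutant hearts. The Aspn groups were likewise apart, and replicate 3 was by far the highest. The difference was 0.73 (SE 0.253, limma adjusted p = 0.142), or 0.41 without that replicate.

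Class II held both the largest and one of the smallest differences among the members. Fmod, which binds collagen and is abundant in tendon and cartilage, was at 1, 1 and 0 in wild-type hearts and at 11, 14 and 25 in saline mutant hearts. All 3 mutant hearts stood clear of wild type, whose values are at the limit that rounding to whole numbers leaves. Fmod rose by 3.40 (SE 0.355, 95% interval 2.59 to 4.2, limma adjusted p = 0.000965). The size depends on the constant added, and it ranged from 1.89 to 5 over 17 alternatives, in all of which Fmod was called. Without saline mutant replicate 3 it was 3.08 (adjusted p = 0.00394).

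Lum, a collagen-binding keratan sulfate proteoglycan, was at 209, 163 and 110 in wild-type hearts and at 190, 188 and 337 in saline mutant hearts. Only replicate 3 of the mutants lay above the highest wild-type heart, and the difference of 0.56 (SE 0.275) had a 95% interval from -0.07 to 1.19 (limma adjusted p = 0.313). Without that replicate the difference in Lum was 0.28. Prelp, which anchors basement membranes to collagen, was at 79, 76 and 61 against 68, 89 and 88, and the groups overlapped. Its difference was 0.18 with a 95% interval from -0.15 to 0.51. Ogn, of class III, was at 146, 144 and 127 in wild-type hearts and at 106, 118 and 193 in saline mutant hearts. Here 2 mutant hearts lay below all wild-type hearts and replicate 3 above them all. The mean difference of -0.05 (95% interval -0.51 to 0.42) therefore covers a wide range, and it was -0.31 without replicate 3.

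In all, 2 of 7 members were called, both higher, where 7.70% of the 13632 genes tested were called and 4.56% were called as higher. The groups did not overlap for 4 of 7 members, all higher in the mutants, against 12.8% of all genes. The median difference of the members was 0.56 and that of all genes tested was 0.07. At an unadjusted p under 0.05 there were 4 members and 2690 genes.

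**Figure D2:**
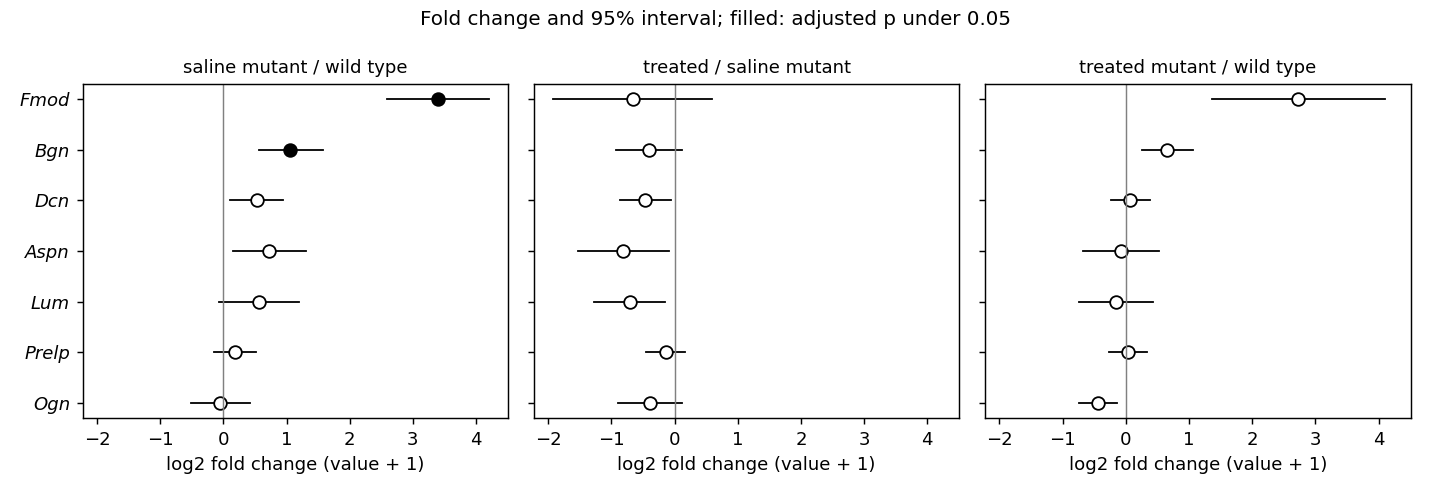
Log2 fold change (value + 1) of each member with its 95% interval from limma, in the 3 comparisons. Filled points passed an adjusted p under 0.05, which holds for Fmod and Bgn in saline mutant against wild-type hearts and for 0 of 7 members in the other comparisons. Of all genes tested 7.70% passed in the first comparison, 0.0147% in treated against saline mutant hearts and 0.989% in treated against wild-type hearts.

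Treated and saline mutant hearts were compared to see what went with the treatment. No group was given a vector without the editor, so editing and the vector cannot be told apart here. Lum was at 190, 188 and 337 in saline mutant hearts and at 141, 111 and 174 in treated hearts. All treated hearts were below all saline mutant hearts, by -0.71 (SE 0.245, 95% interval -1.27 to -0.15), with an unadjusted p of 0.0187 and a limma adjusted p of 0.506. Dcn was at 774, 685 and 819 in treated hearts, also below all 3 saline mutant hearts, with a difference of -0.46 (SE 0.176, limma adjusted p = 0.545). Aspn was at 38, 40 and 74, of which the third overlapped the saline mutant values. Its difference was -0.81 (SE 0.318, limma adjusted p = 0.561). These differences shrank to -0.43 for Lum, -0.26 for Dcn and -0.48 for Aspn without saline mutant replicate 3.

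Bgn in treated hearts, at 713, 494 and 568, overlapped the saline mutant hearts, and the difference of -0.40 had a 95% interval from -0.92 to 0.11 (limma adjusted p = 0.684). Without saline mutant replicate 3 it was -0.16. Fmod in treated hearts was at 27, 5 and 6. Replicate 1, the library with both Xist and Ddx3y, was above every saline mutant heart, and the other treated hearts were below them all. The difference was -0.66 with a 95% interval from -1.92 to 0.59, -1.37 without treated replicate 1 (limma adjusted p = 0.374) and -0.35 without saline mutant replicate 3. Ogn, at 94, 94 and 121, differed by -0.39 (95% interval -0.89 to 0.11), and Prelp, at 81, 73 and 67, by -0.14 (95% interval -0.45 to 0.17). Without saline mutant replicate 3 these were -0.13 and -0.08. In limma 0 of 7 members were called, where 0.0147% of 13636 genes were, and 3 members had an unadjusted p under 0.05, as had 1130 genes. The groups did not overlap for 2 of 7 members, Dcn and Lum, both lower in treated hearts, against 4.34% of all genes. The median of the members was -0.46 and that of all genes -0.02.

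Treated and wild-type hearts were then set side by side, with the same wild-type libraries as above. Fmod, at 27, 5 and 6 against 1, 1 and 0, was higher in every treated heart, with a difference of 2.73 (SE 0.587, 95% interval 1.36 to 4.1, limma adjusted p = 0.103). Bgn, at 713, 494 and 568 against 390, 429 and 303, was also higher in every treated heart, by 0.66 (SE 0.176, 95% interval 0.25 to 1.07, limma adjusted p = 0.172), and its mean was 1.58 times the wild-type mean. Ogn, at 94, 94 and 121 against 146, 144 and 127, was lower in every treated heart, by -0.44 (SE 0.128, 95% interval -0.74 to -0.14, limma adjusted p = 0.217). None of the 3 passed the correction.

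The remaining members in treated hearts overlapped wild type. The difference was 0.07 for Dcn (95% interval -0.24 to 0.38), -0.07 for Aspn (-0.67 to 0.52), -0.15 for Lum (-0.74 to 0.43) and 0.04 for Prelp (-0.27 to 0.34). In limma 0 of 7 members were called, where 0.989% of 13554 genes were, and 3 members and 1697 genes had an unadjusted p under 0.05. The groups did not overlap for 3 of 7 members, against 14.6% of all genes. The median of the members was 0.04 and that of all genes 0.01.

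Each treated heart was also placed on a line on which the saline mutant mean is 0 and the wild-type mean is 1. Bgn lay at 0.111, 0.609 and 0.419, with a mean of 0.38 ± 0.251 (SD, n = 3), and Fmod at -0.219, 0.435 and 0.37, with a mean of 0.196 ± 0.36. Dcn lay at 0.807, 1.14 and 0.654, a mean of 0.866 ± 0.247, and Lum at 1.25, 1.86 and 0.709, a mean of 1.27 ± 0.577. Aspn lay at 1.56, 1.46 and 0.276, a mean of 1.1 ± 0.716. By their means the treated hearts lay farther toward the wild-type side for Dcn, Lum and Aspn than for Bgn and Fmod. Single hearts did not all follow this order: in replicate 3 Aspn lay below Bgn and Fmod. The line is scaled by the difference between saline mutant and wild-type hearts. That difference was not called for Dcn (0.53, limma adjusted p = 0.142), Aspn (0.73, 0.142) or Lum (0.56, 0.313). For Lum these 2 groups overlapped, so the positions of these 3 genes do not show the reversal of an established rise. With 1 library left out the mean for Bgn ranged from 0.197 (without saline mutant replicate 3) to 0.514 (without treated replicate 1), and that for Fmod from 0.0756 (without treated replicate 2) to 0.403 (without treated replicate 1). Those for Dcn ranged from 0.722 to 1.07, for Aspn from 0.87 to 1.51 and for Lum from 0.922 to 2.29, the last without wild-type replicate 3. Differences between genes in these positions were not tested.

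**Figure D3:**
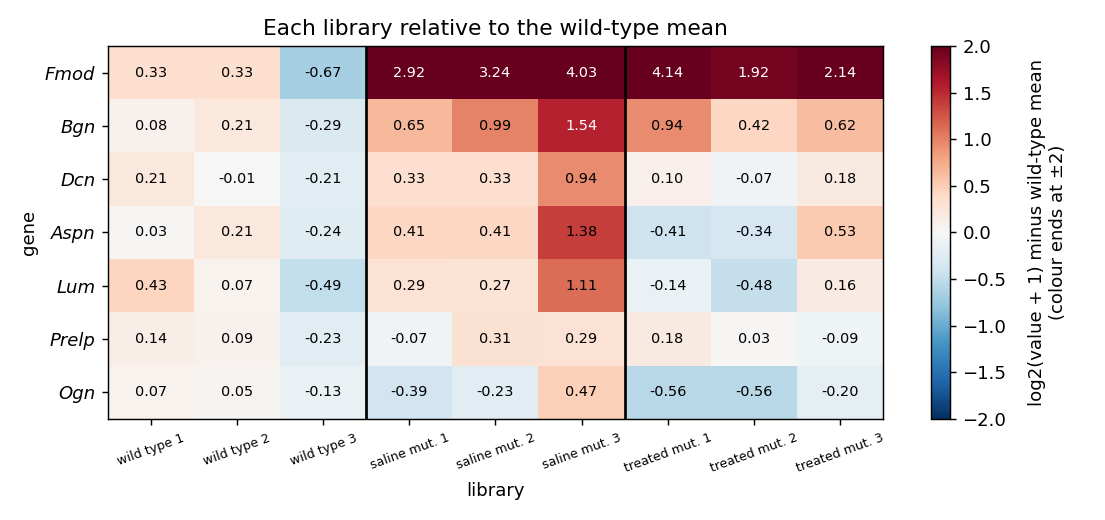
Log2 difference of each library from the wild-type mean (value + 1) for the 7 members, with libraries in columns by group, each value printed in its cell and a colour scale that ends at 2 in either direction. Saline mutant replicate 3 is the highest of its group for every member but Prelp, and Fmod is past the end of the scale in most mutant hearts.

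The proportions among members do not depend on how a library was scaled, and several did not overlap between the mutant groups and wild type. The ratio of Bgn to Dcn was 0.467, 0.597 and 0.486 in the wild-type hearts, 0.642, 0.813 and 0.781 in saline mutant hearts and 0.921, 0.721 and 0.694 in treated hearts. Both mutant groups lay above all wild-type hearts and overlapped each other, and saline mutant replicate 3 was no outlier in this ratio. The ratio of Ogn to Dcn was 0.175, 0.201 and 0.204 in the wild-type hearts, 0.117, 0.13 and 0.139 in saline mutant hearts and 0.121, 0.137 and 0.148 in treated hearts. Both mutant groups lay below all wild-type hearts, and again they overlapped each other. The ratio of Aspn to Ogn, which are neighbours on chromosome 13, was 0.356, 0.41 and 0.339 in the wild-type hearts, 0.642, 0.576 and 0.694 in saline mutant hearts and 0.404, 0.426 and 0.612 in treated hearts. Here saline mutant hearts were above all wild-type hearts, while the treated hearts ranged from near wild type to within the saline mutant values.

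These 3 ratios were chosen after their values were seen, so all 21 ratios between 2 members were counted on the log2 scale. Saline mutant and wild-type hearts did not overlap in 14 of 21, treated and wild-type hearts in 13 of 21, and treated and saline mutant hearts in 1 of 21. Over all pairs of tested genes the shares without overlap were 30.2%, 20.5% and 15.8%. The 21 ratios reuse 7 genes and are not independent. The same wild-type libraries enter both of the first counts. All 6 ratios that include Bgn were among those without overlap between each mutant group and wild type. Leaving out the ratios with Fmod, whose wild-type values are close to 0, the counts were 8, 7 and 1 of 15. An exact permutation test of 3 against 3 libraries cannot go below p = 0.1 (two-sided), and 0.225 was the smallest value after adjustment over the 63 ratios and comparisons. The sum of the 7 members was 1712, 1590 and 1268 in the wild-type hearts, 1932, 2118 and 3242 in saline mutant hearts and 1868, 1502 and 1829 in treated hearts. Only the saline mutant hearts were wholly above wild type in this sum, which Dcn and Bgn dominate.

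**Figure D4:**
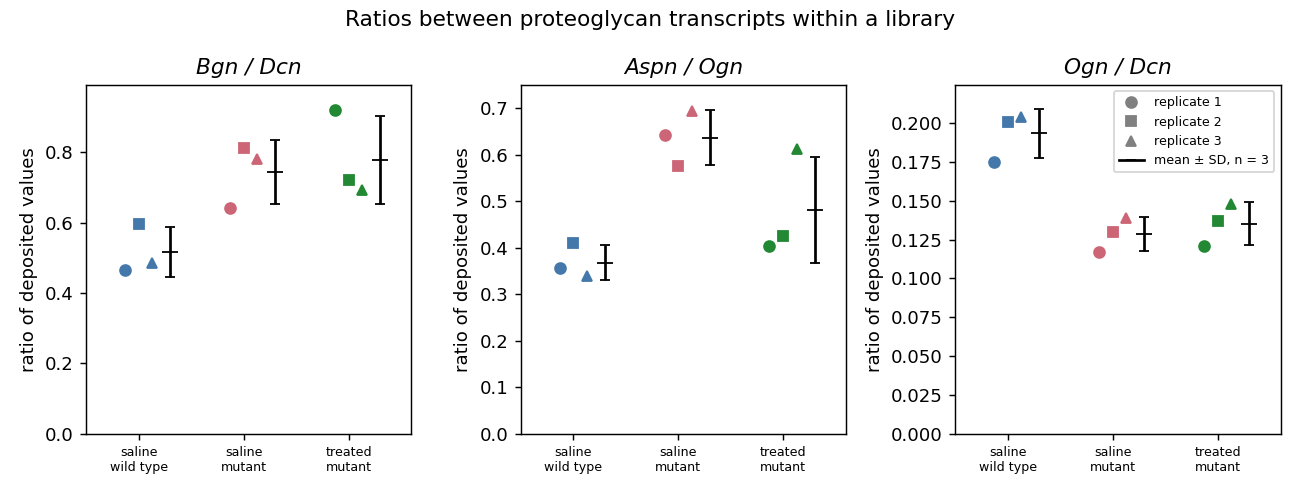
Ratios between members in each heart (linear axes), by group, for Bgn to Dcn, Ogn to Dcn and Aspn to Ogn. Both mutant groups are above wild type for Bgn to Dcn (0.642 or more against at most 0.597) and below it for Ogn to Dcn (at most 0.148 against 0.175 or more).

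Other genes of the SLRP family were read in the same way, and 7 of the 11 listed were in the tables. Ecm2, a matrix protein with leucine-rich repeats that neighbours Aspn, was at 42, 50 and 42 in the wild-type hearts, 65, 60 and 85 in saline mutant hearts and 37, 46 and 52 in treated hearts. It rose in saline mutant hearts by 0.63 (SE 0.148, limma adjusted p = 0.0374), and treated hearts lay below all saline mutant hearts by -0.62 (adjusted p = 0.371). The call was kept in 9 of 18 alternatives, and it was lost without each of 5 single libraries: wild-type replicates 1 and 3 and all 3 saline mutant replicates. Omd (osteomodulin), between Aspn and Ogn, had low values of 3, 2 and 2, then 5, 4 and 9, then 2, 3 and 3, with a saline mutant difference of 1.02 (limma adjusted p = 0.061). Podn and Tsku were tested and not called, at -0.40 and -0.37, and Chad and Nyx were at 0 or 1 and stayed below the minimum for testing. Chadl, also at 0 or 1, reached that minimum only in treated against wild-type hearts, with a difference of 0. Kera, Epyc, Optc and Podnl1 were not analysed here.

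Within the chromosome 13 cluster, Ecm2, Aspn and Omd thus had higher means in saline mutant than in wild-type hearts and lower means in treated than in saline mutant hearts, and Ogn, 15.2 kb beyond Omd, had a saline mutant mean like that of wild type. In the chromosome 10 cluster the neighbours Dcn and Lum differed by 0.53 and 0.56 in saline mutant hearts, and by -0.46 and -0.71 in treated against saline mutant hearts. In the chromosome 1 cluster Fmod differed by 3.40 and Prelp by 0.18. Other tested genes within 1 Mb were read against the 7.70% of all genes called in saline mutant hearts. Of these neighbours 2 of 21 were called on chromosome 1, 0 of 1 on chromosome 10, 1 of 18 on chromosome 13 and 1 of 41 around Bgn. Their median differences were 0.09, 0.09, 0.18 and 0.01. Btg2, which lies beyond Fmod, was called higher (0.92, limma adjusted p = 0.00252), also in treated against wild-type hearts (0.89, 0.0416). The other calls in saline mutant hearts were lower: Gm19461 (-1.25) on chromosome 1, Wnk2 (-2.1) on chromosome 13 and Plxnb3 (-1.0) on the X chromosome.

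**Figure D5:**
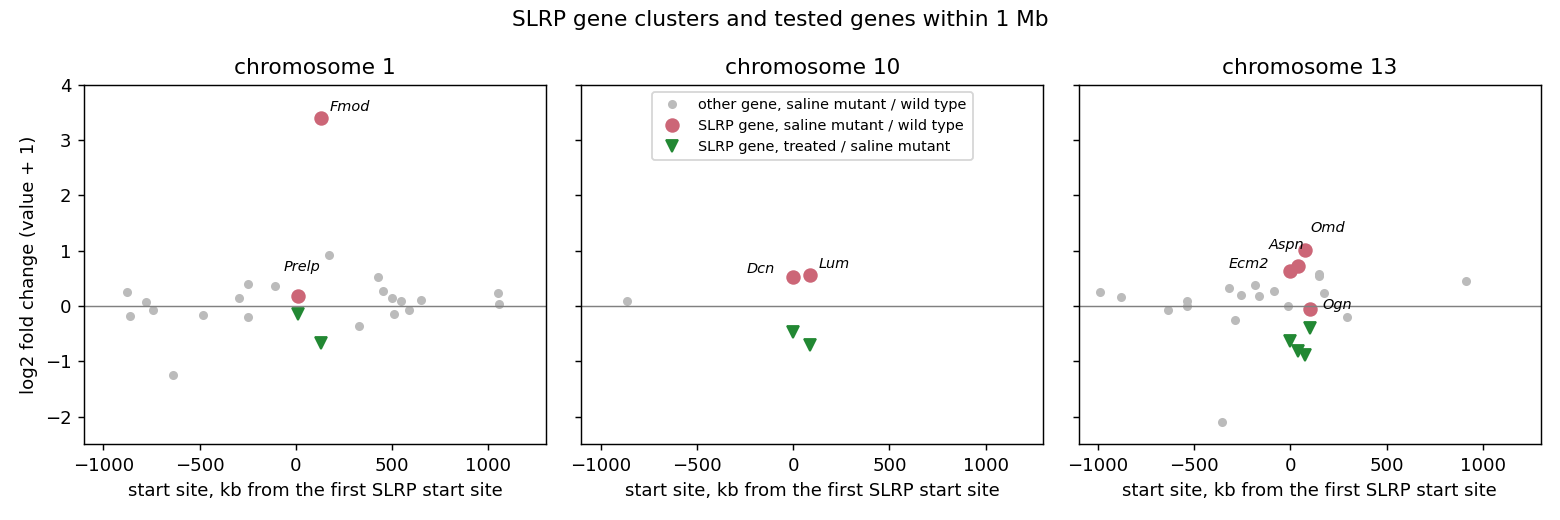
Log2 fold change (value + 1) of SLRP genes and of other tested genes within 1 Mb, against the distance of the start site from the first SLRP start site (kb), for the clusters on chromosomes 1, 10 and 13. Fmod stands at 3.40 while its neighbour Prelp is at 0.18, and the triangles, drawn for SLRP genes only, give treated against saline mutant hearts and are all below 0.

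The collagens that SLRPs bind were higher in saline mutant hearts for 11 of the 11 tested, with 3 called, where 7.70% of all genes were, and a median difference of 0.70. Col1a1, a chain of type I collagen, was at 196, 247 and 148 in the wild-type hearts, 320, 360 and 435 in saline mutant hearts and 261, 218 and 305 in treated hearts. The mutant hearts were apart from wild type, and the rise was 0.93 (limma adjusted p = 0.0194). Col1a2, the partner chain, rose by 0.91 (0.0271), and Col12a1, a fibril-associated collagen, rose by 1.78 (0.023). The number called ranged from 0 to 6 over 18 alternatives. Without saline mutant replicate 2 or 3, wild-type replicate 1 or all libraries with Xist, each of the 3 lost its call. In treated against saline mutant hearts 0 of 12 were called, where only 0.0147% of all genes were. The median was -0.47, close to that of the SLRP members.

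Among growth factors, receptors and other partners known to bind SLRPs, 6 of 24 were called higher in saline mutant hearts and 0 lower. Of all genes 4.56% were called higher. Called or not, 20 of the 24 had a difference above 0, and the median was 0.38. Tlr4, a receptor for soluble Bgn, was at 13, 18 and 14 in the wild-type hearts, 40, 29 and 45 in saline mutant hearts and 35, 40 and 30 in treated hearts. Both mutant groups were above all wild-type hearts, by 1.28 (limma adjusted p = 0.00434) and 1.17 (0.0281). Tgfbr1, the type I receptor of TGF-beta, was at 30, 31 and 30, then 64, 62 and 88, then 61, 65 and 54, and it rose by 1.19 (0.00171) and 0.96 (0.0221). Cd44, a hyaluronan receptor, rose by 1.46 (0.0042) and 1.31 (0.0342). Ccn2, the connective tissue growth factor, was at 47, 52 and 59 in wild type, 176, 171 and 271 in saline mutant and 364, 178 and 175 in treated hearts, with rises of 1.92 (0.000602) and 2.08 (0.0277).

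Tgfb2, a TGF-beta ligand, rose by 1.42 in saline mutant hearts (limma adjusted p = 0.00219) and was 1.09 above wild type in treated hearts (0.0832). These 5 genes of the saline mutant comparison were called in 18 of 18 alternatives. The 4 calls in treated against wild-type hearts, where 0.989% of all genes were called, were each lost without some single libraries, among them each wild-type replicate, and were called in 9 to 12 of 18. In treated against saline mutant hearts 0 of 24 were called, where only 0.0147% of all genes were, and the median was -0.07. Both comparisons with wild type share the wild-type libraries.

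Enzymes that build the sulfated chains of SLRPs, and other proteoglycans, were read against the 7.70% of all genes called in saline mutant hearts. Their counts do not stand out from that share. For chondroitin and dermatan sulfate, 1 of 20 genes was called in saline mutant hearts, Chst3, a chondroitin sulfotransferase (0.85, limma adjusted p = 0.0425), and the median was 0.08, with 15 of 20 higher. The call was kept in 6 of 17 alternatives and was lost when any single library was left out. For keratan sulfate and tyrosine sulfation 0 of 7 were called in limma at that threshold, with B4galt1, a galactosyltransferase, at 0.31 and Tpst2, a tyrosine sulfotransferase, at -0.02. Among 14 other proteoglycans 0 were called, with the basement membrane proteoglycan Hspg2 at 0.18 and the glypican Gpc1 at -0.14.

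Proteases known to cut SLRPs were read together with Pcolce and Pcolce2, which are not proteases. Of these genes 1 of 11 was called higher and 1 lower in saline mutant hearts, against 7.70% of all genes called. Htra1, a secreted serine protease, was at 100, 99 and 90 in the wild-type hearts, 58, 59 and 59 in saline mutant hearts and 86, 80 and 73 in treated hearts. The saline mutant hearts were well below all others, and Htra1 fell by 0.70 on the log2 scale (limma adjusted p = 0.00277). Adamts1, a metalloprotease that cleaves proteoglycans, rose by 1.28 (0.00434). Lox, the enzyme that crosslinks collagen, was at 6, 7 and 7 in the wild-type hearts, 18, 19 and 42 in saline mutant hearts and 24, 15 and 20 in treated hearts. It was 1 of 12 genes called in a list of collagen crosslinking, hydroxylation and folding. Lox rose by 1.73 in saline mutant hearts (0.00805) and by 1.41 in treated hearts against wild type (0.0277). The first call was lost without wild-type replicate 1 (0.0561), and the second without any 1 of 5 libraries, all but treated replicate 2. In treated against saline mutant hearts 0 genes of any of these lists were called, where only 0.0147% of all genes were.

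Markers of the cells that make SLRPs were read beside these results, since fewer cells of a type and less RNA per cell cannot be told apart in whole-heart RNA. The sum of 7 fibroblast markers was 333 to 435 in wild-type, 363 to 648 in saline mutant and 359 to 438 in treated hearts. Of these markers 1 of 7 was called in saline mutant hearts, where 7.70% of all genes were. It was Pdgfrl, a relative of the PDGF receptors, which rose by 1.11 (limma adjusted p = 0.0325). The other 6 were not called and lay on both sides of 0, from Thy1 at -0.73 and Ddr2 at -0.21 to Pdgfra, a defining fibroblast receptor, at 0.39 and Mfap5 at 1.07. The sum of the 6 markers of activated fibroblasts in the tables was 298 to 517, 437 to 945 and 417 to 615. In saline mutant hearts 5 of 6 were higher, and 3 were called, 2 higher and 1 lower, against 7.70% of all genes called. Meox1 rose by 1.28 (limma adjusted p = 0.0225). Postn at 1.44 (0.0763), Comp at 1.03 (0.1) and Fap at 0.15 (0.745) were not called. Cilp, a matrix protein of activated fibroblasts, rose by 3.01 in saline mutant hearts (0.000535) and by 2.62 in treated hearts against wild type (0.0126), while Acta2, the smooth muscle actin of myofibroblasts, fell by 1.09 in saline mutant hearts (0.00721). The second Cilp call was lost without wild-type replicate 1 (0.0522), and that of Acta2 without all libraries with Xist (0.0661). The 8 valve and tendon markers in the tables, which include Fmod and Prelp themselves, summed to 78 to 102, 130 to 206 and 106 to 245. Of the 5 that were tested in saline mutant hearts 2 were called, Thbs4 and the member Fmod, where 7.70% of all genes were. Cytl1 was at -0.18 in saline mutant hearts and at -0.66 in treated hearts against wild type (limma adjusted p = 0.226). Wif1 and Chad were at 0 to 2 in every heart.

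Thbs4, a thrombospondin of tendon and stressed heart muscle, moved in the same libraries as Fmod. It was at 3, 4 and 3 in the wild-type hearts, 33, 33 and 70 in saline mutant hearts and 121, 17 and 29 in treated hearts, and it rose by 3.33 in saline mutant hearts (limma adjusted p = 0.000322). As for Fmod, the highest value of all was in treated replicate 1. Tnmd, a defining tendon marker, was at 0 in all 3 wild-type hearts, at 1, 1 and 2 in saline mutant hearts and at 2, 0 and 1 in treated hearts. The part of these cell types in the SLRP results was not tested.

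Summed markers of the other cell types overlapped between wild-type and saline mutant hearts for endothelium (723 to 977 and 688 to 828), smooth muscle and pericytes (1314 to 1606 and 1199 to 1462), macrophages (230 to 320 and 262 to 494) and cardiomyocytes (26645 to 28566 and 26324 to 29211). Of the 6 cardiomyocyte markers 4 did not overlap between the groups: Tnnt2 (-0.33), Tnni3 (-0.50) and Pln (-0.41) were lower in saline mutant hearts and Actc1 (0.32) higher, with limma adjusted p from 0.0505 to 0.244. The atrial light chain Myl4, at 1 in all wild-type hearts, 3, 3 and 5 in saline mutant hearts and 2, 2 and 3 in treated hearts, rose by 1.19 in saline mutant hearts (limma adjusted p = 0.0125). Blood markers were lower in saline mutant hearts, at 69 to 85 against 104 to 313. Epicardial markers summed to at most 11 in any heart.

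For each member, the genes whose log2 pattern over the 9 libraries was most alike were named by the smallest mean absolute difference after centring, among 8779 genes with a mean of at least 10. For Fmod these were Thbs4, at a mean difference of 0.326, Cilp at 0.428 and Tnfrsf12a at 0.491, where Fmod itself spanned 4.81 log2 units. For Bgn they were Nupr1 (0.0775), Serpinf1 (0.0966) and Lrrcc1 (0.101). For Aspn they were Gxylt2 (0.0996), Nrep (0.13) and Cdh11 (0.135), and for Dcn they were Lhfp (0.0731), Cd63 (0.0753) and Hif1a (0.0856). For Lum they were Tceal9 (0.11), Kctd12 (0.124) and Rpl3-ps1 (0.133). For Ogn they were Mpp1 (0.0796), Plscr4 (0.0809) and Fam92a (0.0811), and for Prelp Npc2 (0.0578), Phf23 (0.0626) and Atraid (0.0633). Within the family the closest patterns were those of Dcn and Lum, at 0.164, and of Lum and Aspn, at 0.186, whereas Bgn and Ogn differed by 0.49. Fmod was the least alike, and differed from the other members by 0.98 (Bgn) to 1.47 (Ogn). Libraries in 1 pattern share their depth and their heart, so these are descriptions without a test.

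The authors' deposited tables give log2 differences near these for Bgn, 1, and larger ones for Fmod, 4.55, in saline mutant against wild-type hearts. Both are in the authors' deposited list of 689 selected genes, as is Aspn at 0.72. In the authors' deposited table the column named for adjusted p-values holds the unadjusted p of the test statistic. Adjusted here by Benjamini and Hochberg, the authors' deposited p-values gave 1.22e-05 for Bgn, 0.00545 for Fmod and 0.236 for Aspn. For treated against saline mutant hearts the authors' deposited list of 137 genes holds Lum at -0.68 and Aspn at -0.77, and both had an adjusted value of 1. For treated against wild-type hearts the authors' deposited list of 317 genes holds Bgn at 0.65 and Fmod at 4.25, with adjusted values of 0.0853 and 0.12.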

How the data were processed

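The data are 9 RNA libraries of adult mouse heart, in 3 groups of 3 taken from the labels. Per the submitters' processing notes, HISAT2, HTSeq and DESeq2 were used with the mm10 build. The authors deposited 1 value per gene and library, which is a score here: a normalised value rounded to whole numbers, whose unit is not given in the sources used here, so no count model was used and no counting error is known. The authors also deposited a mean signal over libraries, log2 fold changes and p-values for each comparison. Here each pair of groups was fitted separately with limma 3.58.1 (R 4.3.3) on log2(value + 1), for genes with a mean of at least 1 over the 6 libraries. Residual variances were held at or above that of rounding. The prior variance followed a trend over all tested genes, and the prior degrees of freedom came from genes with a mean of at least 30. Two-sided p-values were adjusted by Benjamini and Hochberg over all genes. The members, motifs and gene lists were chosen with earlier results of these data known. All 7 members are named, and from each list the called genes with the smallest p, or 2 genes of the highest mean where none was called. The scripts were tested on simulated data. Alternatives changed the pseudocount, filter, scaling, variance model, design and libraries.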

Additional observations from a re-analysis of the deposited data

How the results depend on the processing

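The number of members called in saline mutant against wild-type hearts, 2, was 1 with a filter at a mean value of 10, which removes Fmod, 1 with a limma trend without the variance floor and 1 without the libraries with Xist, and it was 1 to 2 when 1 library was left out. In treated against saline mutant hearts it was 0 and became 1 with the replicate block (Aspn, adjusted p = 0.0417). In treated against wild-type hearts it was 0 and became 1 with the prior degrees of freedom taken from all genes (Fmod, 0.0414). It was also 1 with all 3 groups in one fit (Fmod, 0.0364). Leaving out 1 library gave 0 in both comparisons of treated hearts. Dcn was called in saline mutant hearts with a Y-linked covariate (0.54, adjusted p = 0.0264, range 0.0264 to 0.382). Signs turned only where differences were small. In treated against wild-type hearts, upper-quartile scaling gave -0.01 for Dcn and -0.04 for Prelp, the Y-linked covariate gave 0.02 for Lum, and leaving out the libraries with Xist gave 0.05 for Lum and 0.11 for Aspn. With 1 library left out, the difference from wild type in treated hearts ranged from -0.03 to 0.18 for Dcn, -0.40 to 0.06 for Lum, -0.08 to 0.11 for Prelp and -0.38 to 0.10 for Aspn, and that in saline mutant hearts from -0.31 to 0.12 for Ogn. The labels do not say whether replicate numbers pair the libraries. Same-numbered deviations correlated over genes at -0.23, -0.10 and -0.37 for saline mutant with wild-type hearts. They were -0.07, 0.20 and 0.12 for treated with saline mutant, and 0.57, 0.15 and 0.03 for treated with wild-type hearts. Between different numbers the correlations ran from -0.07 to 0.28, -0.26 to 0.07 and -0.39 to 0.34. With 3 libraries in a group, centred on their own mean, these values cannot decide on a pairing. With the replicate block 819, 30 and 35 genes were called, against 1050, 2 and 134 without it. Upper-quartile scaling moved the calls in saline mutant against wild-type hearts from 622 higher and 428 lower (59.2% higher) to 622 and 684 (47.6%), and those in treated against wild-type hearts from 117 and 17 (87.3%) to 116 and 46 (71.6%), so that mostly the lower calls grew. Depth is unknown, and rounding limits Fmod, Omd and other genes near 1. Each group has 3 libraries, which limits every interval.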
